A study of Homo sapiens with 8 samples.

Results

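Histone-modifying enzymes add or remove methyl and acetyl groups on histones, and RNA levels of 48 such genes were followed in human lymphoblastoid cells exposed to hexavalent chromium. The 48 were chosen by name as writers and erasers of histone methylation and acetylation and were matched to the count tables by gene symbol. All 48 were found among 23710 gene symbols, and all 48 passed the filter on low counts, which left 12536 genes to be tested. Lymphoblastoid lines are B cells immortalised with Epstein-Barr virus, and a single line was used. Of the 4 groups, control cells were sampled before exposure, the 24 h group at the end of 24 h in 5 µM hexavalent chromium, and the other groups 3 and 7 days post treatment, each with 2 libraries labelled as biological replicates. All cells grew in RPMI medium. The labels count days after treatment, whereas the series text counts from when exposure began, and which of these holds is not settled. No unexposed cells at later times were analysed here, so exposure and time in culture cannot be told apart in any comparison.

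Methylation of histone lysines is read differently by position: H3K4, H3K36 and H3K79 methylation mark active promoters and gene bodies, while H3K9 and H3K27 methylation mark silent chromatin. Acetylation by enzymes such as p300 opens chromatin, and deacetylases and the NAD-dependent sirtuins reverse it. Chromate, the form hexavalent chromium takes in water, enters cells and is reduced there. In other cells it has been reported to trap a deacetylase, HDAC1, on DNA and to raise levels of the H3K9 methyltransferase EHMT2. In B cells, EZH2 and the acetyltransferases CREBBP and EP300 are known for their part in the germinal centre and for mutations in lymphoma.

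Each library held 9478459 to 11110830 reads assigned to genes, and the 48 enzymes together took 0.416% to 0.459% of them. The cells carried B cell transcripts: 12 of 12 B cell markers reached 10 CPM (read counts scaled to a common library size, not corrected for length) in at least 1 library. Markers of other cells were low or absent. For T and NK cells 0 of 9 reached this level and 3 had no count in any library. For myeloid cells 1 of 7 did and 2 had no count, for epithelial and stromal cells 0 of 7 did and 1 had no count, and none of 5 erythroid markers had a count. Over the 48 enzymes the nearest neighbour of every library came from another group. Replicate 1 at 3 days and replicate 1 at 7 days differed from the other 6 libraries, with 39.4% and 36.5% of reads under no feature against 44.4% to 51.5%, and with 12.5% of gene counts in the 20 highest genes in each of these 2 libraries against 8.88% to 9.65%. Late against early fold changes are given with and without these 2 libraries where leaving them out turned the sign or moved the value by over 1.5 times, a setting chosen after the data were seen.

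None of the 48 enzymes passed an adjusted p of 0.05 in edgeR's quasi-likelihood test in any of the 6 comparisons between groups or in a single test of the 3 exposed groups against control. Over all 12536 genes these tests called 0% as well. DESeq2 and limma-voom also called 0 of the 48, though DESeq2 did call some of all the genes. It called 9 (3 days) and 15 (7 days) against control, and 19 (3 days) and 21 (7 days) against 24 h. In the joint test it called 65, and in the contrast described next 276. A contrast of the 4 late libraries (3 and 7 days) with the 4 early libraries (control and 24 h) called 0 of the 48, against 0.00798% of all genes, with the smallest adjusted p among the enzymes at 0.233. Each side pools 2 groups, as do the SDs over 4 libraries given below. The contrast treats libraries as independent, although late libraries of the same replicate number resembled each other. Its SEs and p-values take no account of that. At an unadjusted p under 0.05, 6 of the 48 stood out in this contrast, 4 higher and 2 lower. This was 12.5% of the list against 14.2% of all genes, of which 6.94% were higher and 7.24% lower. In these bulk samples, fewer cells of a kind and less RNA per cell cannot be told apart. The enzymes differed late from early no more often than genes at large. Their median log2 fold change was 0.05, with 26 higher and 22 lower, beside 0.01 and 50.5% higher over all genes. The differences were also of ordinary size, with a median absolute log2 fold change of 0.23 for the 48 and 0.28 for all genes. Without late replicate 1 the sign turned for 18 of the 48, and for 42 the value turned or moved by over 1.5 times, although the list still split into 28 higher and 20 lower. The share of all genes that did so was not computed, so whether these counts are particular to the enzymes is not known. Values near 0 meet the rule easily, as KDM5A did with 0.0023 and 0.0155. With all libraries, 8 of the 48 reached a difference of 0.5 on the log2 scale, whereas 25.1% of all genes did.

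**Figure D1:**
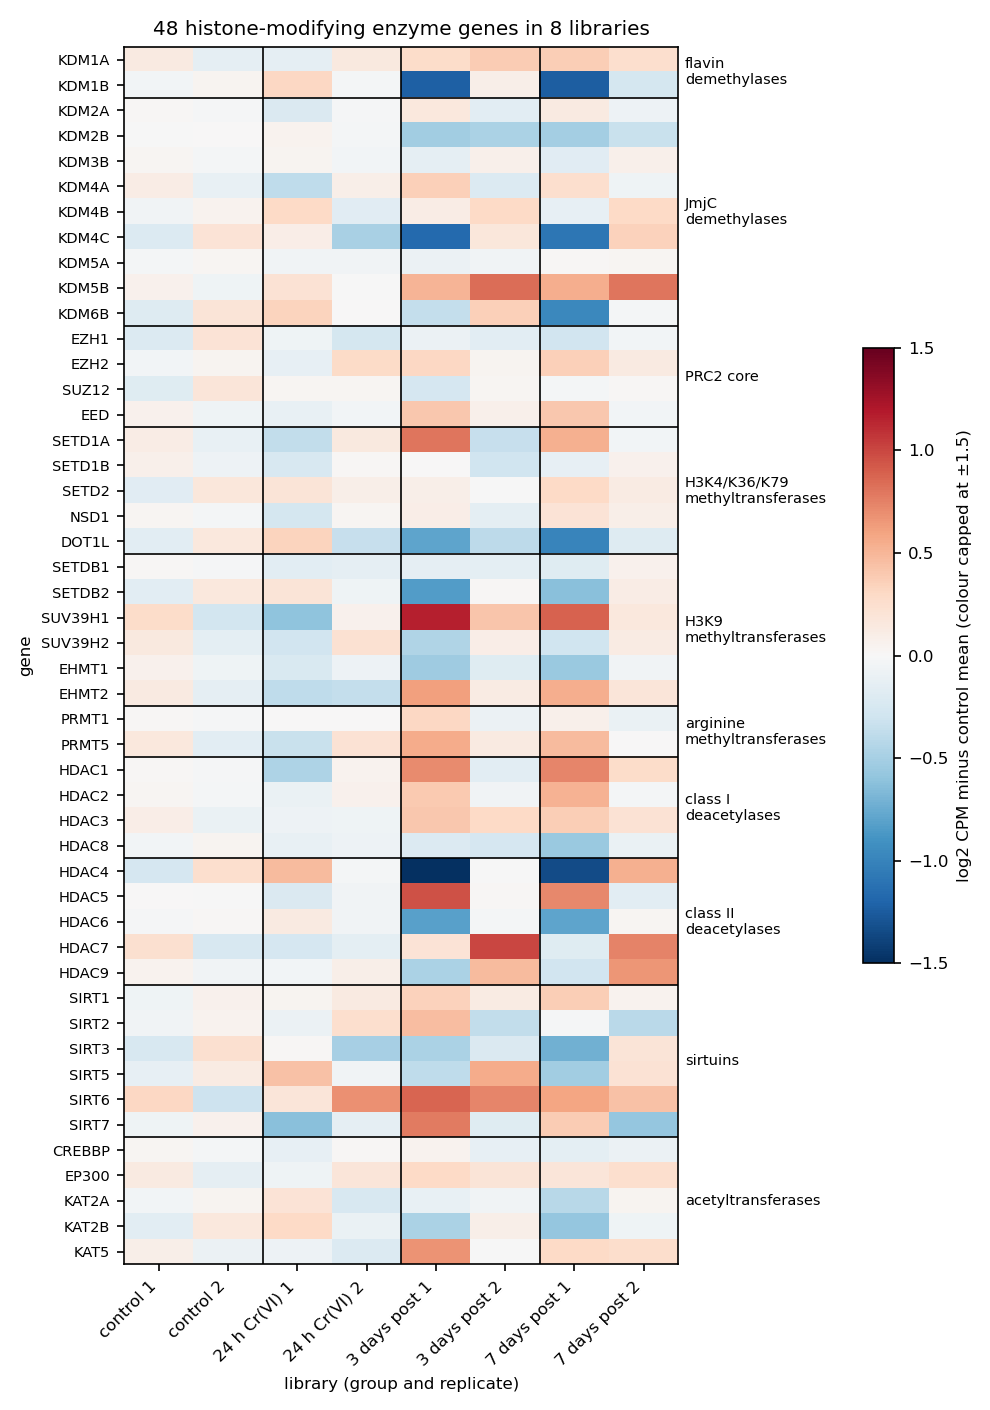
Log2 level of each of the 48 enzymes in the 8 libraries (columns) relative to the control mean, grouped by role (rows). Replicate 1 at 3 days resembles replicate 1 at 7 days more closely than its own replicate 2. Control and 24 h libraries differ less from each other than the 2 replicates of either late time do.

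Levels per length differed widely among the enzymes, and some related enzymes were far apart on this measure. In control cells, scaled counts per kilobase of transcript (CPM/kb, longest coding transcript of GENCODE 29) were highest for HDAC1, a class I deacetylase, at 89.3 and 86.4 CPM/kb in the 2 libraries. PRMT1, the main asymmetric arginine methyltransferase, followed at 73.8 and 71.7 CPM/kb. The Polycomb repressive complex that methylates H3K27 came next: its scaffold SUZ12 stood at 63.2 and 80.8 CPM/kb, EED at 69.8 and 63.9 CPM/kb, and the catalytic subunit EZH2 at 50.3 and 53.7 CPM/kb. The 2 SUZ12 values spanned those of PRMT1 and EED, so the order of these 3 genes is not settled. EZH1, the alternative catalytic subunit, had 6.65 and 8.84 CPM/kb. Among the H3K9 methyltransferases that work as a pair, EHMT1 stood at 49.8 and 45.7 CPM/kb and EHMT2 at 7.58 and 6.32 CPM/kb. HDAC2, the closest relative of HDAC1, had 11.1 and 10.6 CPM/kb. Its gap to HDAC1 rests in part on the transcript lengths used, 9874 bases for HDAC2 and 2124 for HDAC1. In CPM the control means were closer, 107 for HDAC2 and 187 for HDAC1. Which transcripts the cells express was not examined. HDAC3 had 35.8 and 31.3 CPM/kb. The class II deacetylases HDAC4, HDAC5, HDAC7 and HDAC9, which shuttle between nucleus and cytoplasm, were among the 9 lowest, between 1.26 and 3.27 CPM/kb on average, with HDAC4 lowest of all. In CPM, without correction for length, KDM5A had the highest mean over the 8 libraries (328 CPM) and SUV39H1 the lowest (9.04 CPM).

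**Figure D2:**
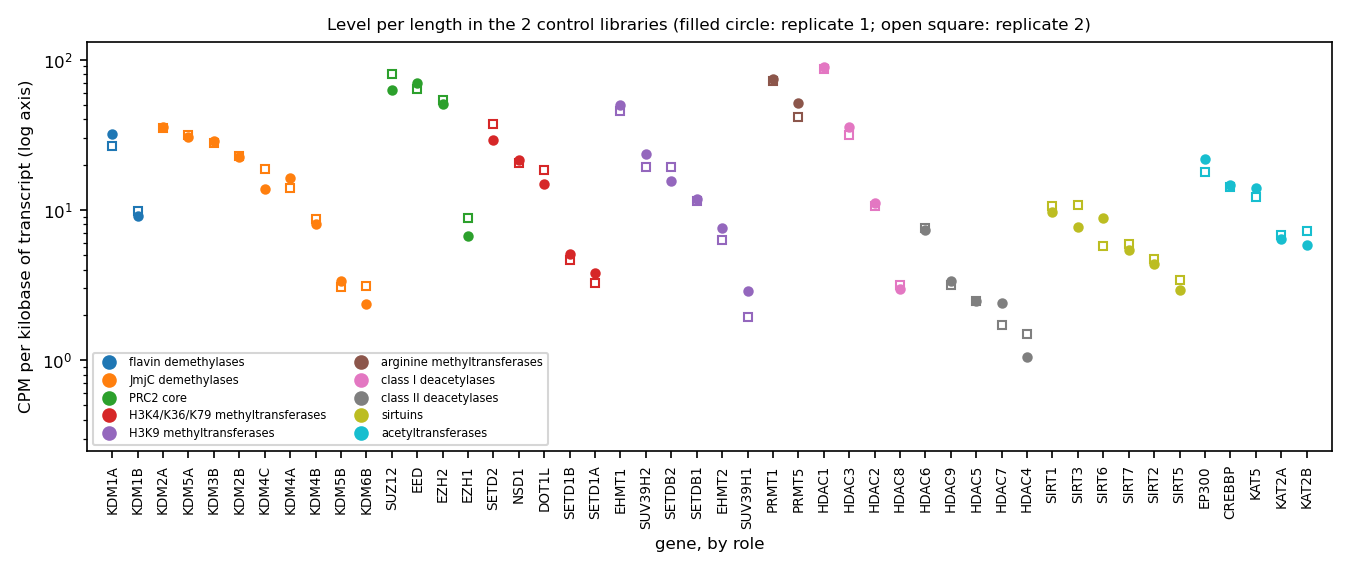
Level per length (CPM per kilobase, log axis) of each enzyme in the 2 control libraries, ordered by role and level. HDAC1 is at the top at 87.8 CPM/kb on average and HDAC4 at the bottom at 1.26 CPM/kb, and the 2 libraries lie close to each other for most genes.

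Among the demethylases, KDM5B and KDM2B showed the clearest difference between late and early libraries. KDM5B, which removes methyl groups from H3K4, stood at 34.6 and 31.7 CPM in control cells, 38.6 and 33.0 CPM at 24 h, 47.2 and 59.2 CPM at 3 days and 48.3 and 57.8 CPM at 7 days. Every late library lay above every early one. The late libraries averaged 53.1 ± 6.25 CPM and the early ones 34.5 ± 2.98 CPM (SD, n = 4 each), a log2 fold change of 0.62 ± 0.16 (SE) with an edgeR adjusted p of 0.233. KDM2B, which binds unmethylated CpG islands and removes methyl groups from H3K36, stood at 118 and 119 CPM in control cells, 123 and 117 CPM at 24 h, 82.6 and 85.6 CPM at 3 days and 83.1 and 94.1 CPM at 7 days. Here every late library lay below every early one, and the replicates of each group were close. The late libraries averaged 86.3 ± 5.32 CPM and the early ones 119 ± 2.98 CPM (SD, n = 4 each), a log2 fold change of -0.47 ± 0.13 with an edgeR adjusted p of 0.261. RNF34, whose exons overlap KDM2B on the opposite strand, averaged 63.1 CPM in the late and 61.0 CPM in the early libraries.

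Late and early libraries did not overlap for 5 of the 48 enzymes, KDM5B, KDM1A, HDAC3 and EP300 higher late and KDM2B lower, which is 10.4% of the list against 13.4% of all genes. Among all genes 5.93% were higher without overlap and 7.43% lower. KDM1A, the flavin-dependent demethylase of H3K4, stood at 98.6 and 81.5 CPM in control cells, 81.3 and 99.2 CPM at 24 h, 109 and 117 CPM at 3 days and 116 and 107 CPM at 7 days. Its log2 fold change late against early was 0.31 ± 0.15 (edgeR adjusted p = 0.368). HDAC3, the catalytic subunit of the NCOR corepressor complexes, stood at 70.2 and 61.3 CPM in control cells, 62.1 and 62.5 CPM at 24 h, 86.8 and 80.5 CPM at 3 days and 84.9 and 76.5 CPM at 7 days. Its late libraries averaged 82.2 ± 4.64 CPM and the early ones 64.0 ± 4.14 CPM (SD, n = 4 each), a log2 fold change of 0.36 ± 0.14 (edgeR adjusted p = 0.318). EP300, the p300 acetyltransferase, stood at 208 and 172 CPM in control cells, 180.1 and 214 CPM at 24 h, 232 and 216 CPM at 3 days and 215 and 225 CPM at 7 days. The gap between its highest early and lowest late library was about 1 CPM, and the log2 fold change was 0.20 ± 0.15 (edgeR adjusted p = 0.508).

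**Figure D3:**
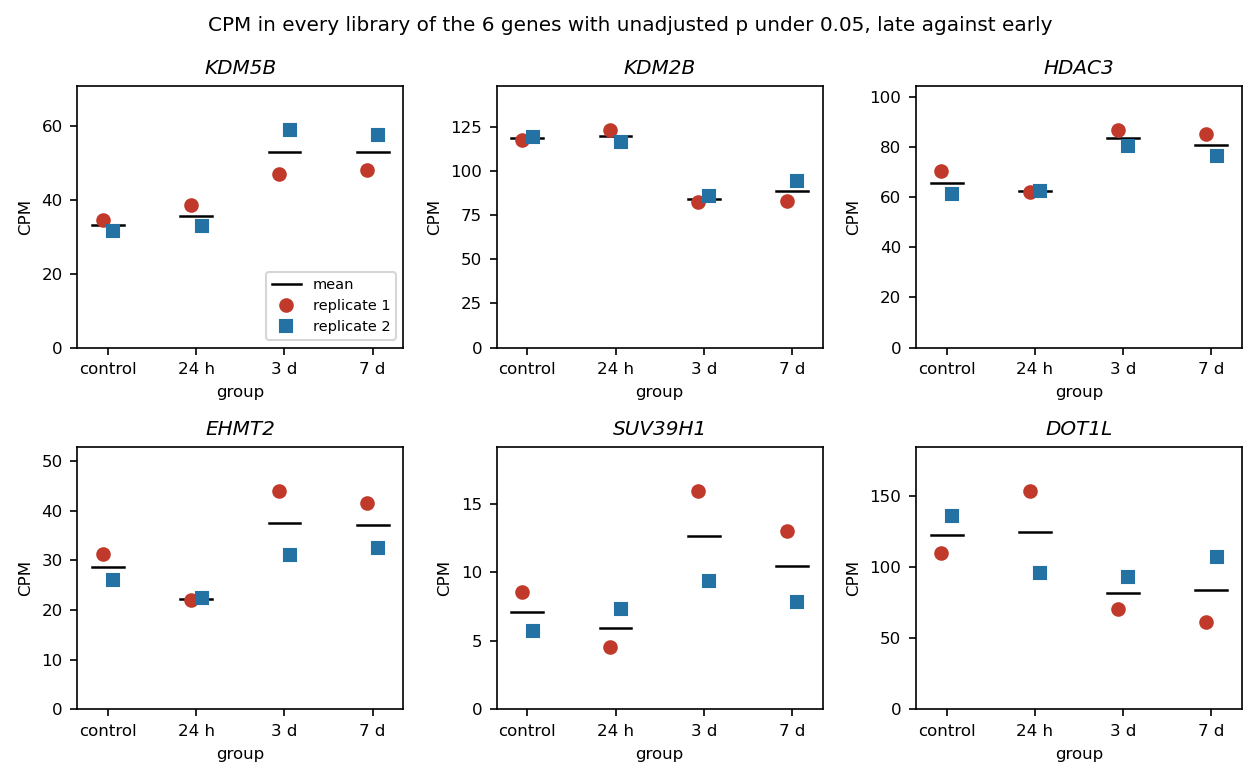
CPM in every library for the 6 enzymes with an unadjusted p under 0.05 in late against early libraries, with groups in time order, a marker for each replicate and a bar at the group mean. KDM5B and HDAC3 lie higher and KDM2B lower in all 4 late libraries than in any early one, while EHMT2 and SUV39H1 are highest in late replicate 1 and DOT1L lowest there.

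The promoters of KDM5B, KDM2B and HDAC3 are shown because these were the 3 enzymes with both an unadjusted p under 0.05 and no overlap between late and early libraries. Each window runs from 250 bases before to 50 bases after the start of the gene in RefSeq for GRCh38.p14, on the minus strand in all 3 cases. The windows are chr1:202808372-202808671 for KDM5B, chr12:121580974-121581273 for KDM2B and chr5:141636800-141637099 for HDAC3. Capitals mark matches on either strand to the GC box GGGCGG, to which SP1-family factors bind, and to ACGTG, the core of the hypoxia response element.
KDM5B: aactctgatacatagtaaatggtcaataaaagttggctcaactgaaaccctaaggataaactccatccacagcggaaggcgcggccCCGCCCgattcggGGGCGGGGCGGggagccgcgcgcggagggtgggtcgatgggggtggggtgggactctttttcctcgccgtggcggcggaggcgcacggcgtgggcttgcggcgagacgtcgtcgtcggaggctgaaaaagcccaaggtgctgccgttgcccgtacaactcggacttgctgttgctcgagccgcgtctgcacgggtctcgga
KDM2B: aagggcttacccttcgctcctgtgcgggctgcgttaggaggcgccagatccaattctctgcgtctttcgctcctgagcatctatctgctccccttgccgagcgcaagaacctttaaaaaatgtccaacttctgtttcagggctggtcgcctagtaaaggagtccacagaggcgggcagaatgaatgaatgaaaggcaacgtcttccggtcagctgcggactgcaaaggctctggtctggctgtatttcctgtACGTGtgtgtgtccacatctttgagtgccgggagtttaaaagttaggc
HDAC3: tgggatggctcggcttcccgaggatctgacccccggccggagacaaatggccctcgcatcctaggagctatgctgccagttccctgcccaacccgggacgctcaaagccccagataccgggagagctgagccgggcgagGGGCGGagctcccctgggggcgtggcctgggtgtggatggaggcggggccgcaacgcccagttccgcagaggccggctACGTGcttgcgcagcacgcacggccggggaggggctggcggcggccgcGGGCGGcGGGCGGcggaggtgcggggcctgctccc
The KDM5B window held 3 GC boxes, of which 2 share 1 base, and no ACGTG. The KDM2B window held no GC box and 1 ACGTG. The HDAC3 window held 3 GC boxes and 1 ACGTG. Neither E2F core searched, TTCCCGC and TTGGCGC, was found in these windows. Promoters were matched for 44 of the 48 enzymes, and a GC box was present in 63.6% of these against 45% of 35116 promoters of the same length. ACGTG was present in 27.3% of the enzymes' promoters against 21.4% of all, TTCCCGC in 11.4% against 6.55%, and TTGGCGC in 4.55% against 3.04%. The 35116 promoters were not limited to genes expressed here or to a single promoter per gene, whereas all the enzymes passed the count filter. The sets are therefore unlike, and these shares do not show a trait of the enzymes. These matches describe the letters in the window and show no binding.

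Of the 9 JmjC-domain demethylases, which use iron and oxoglutarate, 5 were higher late and 4 lower, with a median log2 fold change near 0, and 6 were higher and 3 lower without late replicate 1. Beyond KDM5B and KDM2B, KDM6B, an H3K27 demethylase, stood at 15.9 and 21.0 CPM in control cells, 23.1 and 18.4 CPM at 24 h, 14.2 and 23.4 CPM at 3 days and 9.28 and 17.9 CPM at 7 days. Its late and early ranges overlapped, and the log2 fold change was -0.29 ± 0.27 (edgeR adjusted p = 0.594). KDM4A, which acts on H3K9 and H3K36, had a log2 fold change of 0.16 ± 0.19 (edgeR adjusted p = 0.677). The signs of both turned without late replicate 1, to 0.07 for KDM6B and -0.07 for KDM4A. The other 5, KDM2A, KDM3B, KDM4B, KDM4C and KDM5A, lay between -0.20 and 0.11 on the log2 scale. They lay between -0.06 and 0.34 without late replicate 1, where KDM4C turned to 0.34, KDM2A to -0.06 and KDM3B to 0.08, while KDM4B stood at 0.26 and KDM5A at 0.02. KDM5A, which removes the same mark as KDM5B, was the most even of these, with 314 to 339 CPM in the late libraries and 322 to 339 CPM in the early ones. The second flavin demethylase, KDM1B, had a late against early log2 fold change of -0.62 ± 0.32 (edgeR adjusted p = 0.395), with 15.1 to 38.4 CPM in the late libraries and 34.9 to 44.6 CPM in the early ones. It was -0.16 ± 0.17 without late replicate 1 (edgeR adjusted p = 0.788).

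The Polycomb subunits differed little between late and early libraries. EED had a log2 fold change of 0.26 ± 0.16, EZH2 of 0.16 ± 0.16, EZH1 of -0.07 ± 0.17 and SUZ12 of -0.08 ± 0.15 late against early, each within 2 standard errors of 0. These values were 0.06, 0.04, -0.02 and 0.01 in the same gene order without late replicate 1, so that of SUZ12 turned. EZH1 stood at 30.8 and 40.8 CPM in control cells, 34.0 and 29.4 CPM at 24 h, 33.4 and 31.8 CPM at 3 days and 29.1 and 34.5 CPM at 7 days. Its groups overlapped throughout.

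The H3K9 methyltransferases lay on both sides of 0, with 2 of 6 higher late and 4 lower, but 5 of 6 were higher without late replicate 1. EHMT2 stood at 31.3 and 26.1 CPM in control cells, 21.9 and 22.3 CPM at 24 h, 44.0 and 31.1 CPM at 3 days and 41.6 and 32.5 CPM at 7 days. Both late replicate 1 libraries lay well above control and the lowest late library lay just under the higher control. The late libraries averaged 37.3 ± 6.48 CPM and the early ones 25.4 ± 4.35 CPM (SD, n = 4 each), a log2 fold change of 0.56 ± 0.18 (edgeR adjusted p = 0.288). Without the 2 late replicate 1 libraries it was 0.34 ± 0.16 (edgeR adjusted p = 0.475). SUV39H1, which trimethylates H3K9 near centromeres, stood at 8.52 and 5.73 CPM in control cells, 4.52 and 7.35 CPM at 24 h, 15.9 and 9.37 CPM at 3 days and 13.03 and 7.84 CPM at 7 days. Its late replicate 1 libraries were the highest of the 8, and 7 day replicate 2 lay within the early range. The late libraries averaged 11.5 ± 3.65 CPM and the early ones 6.53 ± 1.76 CPM (SD, n = 4 each), a log2 fold change of 0.82 ± 0.30 (edgeR adjusted p = 0.314), which was 0.40 ± 0.28 without late replicate 1 (edgeR adjusted p = 0.661). With all libraries the related genes had negative values, EHMT1 at -0.25 ± 0.17, SUV39H2 at -0.11 ± 0.21 and SETDB2, a relative of SETDB1, at -0.32 ± 0.25. These rested on late replicate 1, without which EHMT1 stood at -0.04, SUV39H2 at 0.11 and SETDB2 at 0.03. SETDB1, which works with KRAB zinc-finger repressors, stood at 52.4 and 51.0 CPM in control cells and 46.2 and 47.1 CPM at 24 h. At 3 days it stood at 47.2 and 46.6 CPM, and at 7 days at 45.5 and 54.0 CPM. Its late against early log2 fold change was -0.03 ± 0.14, and 0.03 without late replicate 1.

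DOT1L, the only known methyltransferase for H3K79, had a lower mean in the late libraries. It stood at 109.7 and 136 CPM in control cells and 153 and 96.0 CPM at 24 h. At 3 days it stood at 70.5 and 92.7 CPM, and at 7 days at 61.3 and 107 CPM. Only 7 day replicate 2 reached into the early range, which was itself wide. The log2 fold change was -0.58 ± 0.24 (edgeR adjusted p = 0.341), and -0.31 ± 0.23 without late replicate 1 (edgeR adjusted p = 0.672). NSD1, which dimethylates H3K36, stood at 277 and 265 CPM in control cells, 226 and 277 CPM at 24 h, 290 and 245 CPM at 3 days and 313 and 288 CPM at 7 days, with a log2 fold change of 0.12 ± 0.15, and 0.03 without late replicate 1. SETD2, which trimethylates H3K36, had 0.05 ± 0.15, and the H3K4 methyltransferases SETD1A and SETD1B had 0.35 ± 0.29 and -0.03 ± 0.16. Without late replicate 1, SETD1A turned to -0.15 and SETD2 to -0.02, and SETD1B stood at -0.06. The arginine methyltransferases PRMT5 and PRMT1 had 0.32 ± 0.20 and 0.05 ± 0.15 with all libraries, against 0.09 and -0.10 without late replicate 1.

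Among class I deacetylases, 3 were higher late and 1 lower, against 2 and 2 without late replicate 1. HDAC1 stood at 189.6 and 184 CPM in control cells, 135 and 194 CPM at 24 h, 305 and 167 CPM at 3 days and 309 and 226 CPM at 7 days. The late replicate 1 libraries were far above the rest, while 3 day replicate 2 lay below both controls. The log2 fold change late against early was 0.52 ± 0.23 (edgeR adjusted p = 0.358), and 0.15 ± 0.18 without late replicate 1 (edgeR adjusted p = 0.812). HDAC2, which shares its complexes with HDAC1, had 0.24 ± 0.18, which turned to -0.03 without late replicate 1. HDAC8, which deacetylates cohesin, had -0.22 ± 0.18, and -0.12 without those libraries. HDAC3 differed from HDAC1 in that its late replicates were close, and its log2 fold change was 0.30 ± 0.14 without late replicate 1 (edgeR adjusted p = 0.491). The class II genes spread widely: HDAC7 had 0.61 ± 0.29, HDAC5 0.53 ± 0.28, HDAC6, a tubulin deacetylase, -0.37 ± 0.25, HDAC4 -0.50 ± 0.48 and HDAC9 0.16 ± 0.27. All 5 moved by over 1.5 times or turned without late replicate 1. HDAC5 then stood near 0, HDAC6 at -0.02 and HDAC4 at 0.14, while HDAC7 had 0.98 ± 0.21 (edgeR adjusted p = 0.198) and HDAC9 had 0.56 ± 0.14 (edgeR adjusted p = 0.250).

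Of the 6 sirtuins, 3 were higher late and 3 lower. SIRT6, a nuclear sirtuin that takes part in DNA repair, stood at 14.5 and 9.42 CPM in control cells, 13.3 and 19.0 CPM at 24 h, 21.6 and 19.5 CPM at 3 days and 17.7 and 15.9 CPM at 7 days. The control mean was the lowest of the 4 groups, and both 3 day libraries exceeded every early one. SIRT7, a nucleolar sirtuin, stood at 9.4 and 10.3 CPM in control cells and 6.33 and 8.93 CPM at 24 h. At 3 days it stood at 17.1 and 8.66 CPM, and at 7 days at 12.9 and 6.53 CPM. SIRT2, which is mostly cytoplasmic, stood at 9.05 and 9.72 CPM in control cells and 8.85 and 11.3 CPM at 24 h. At 3 days it stood at 12.95 and 7.23 CPM, and at 7 days at 9.28 and 7.04 CPM. In SIRT7 both late replicate 1 libraries lay above control and both late replicate 2 libraries below it. Late against early, SIRT6 had a log2 fold change of 0.42 ± 0.21, SIRT7 of 0.36 ± 0.31, SIRT1 of 0.19 ± 0.15 and SIRT2 of -0.10 ± 0.25, and the mitochondrial SIRT3 and SIRT5 had -0.17 ± 0.26 and -0.08 ± 0.28. Without late replicate 1 the sirtuins split into 4 higher and 2 lower, and 3 of them changed side: SIRT7 turned to -0.20, SIRT3 to 0.09 and SIRT5 to 0.29, and SIRT1 stood at 0.05 and SIRT2 at -0.44. SIRT6, at 0.34, moved least. Among acetyltransferases, KAT5, the catalytic subunit of the NuA4 complex, had 0.40 ± 0.19, KAT2B -0.29 ± 0.21, KAT2A -0.12 ± 0.19 and CREBBP -0.05 ± 0.13. None of these 4 turned without late replicate 1, where KAT5 stood at 0.21, KAT2B at -0.04, KAT2A near 0 and CREBBP at -0.08.

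**Figure D4:**
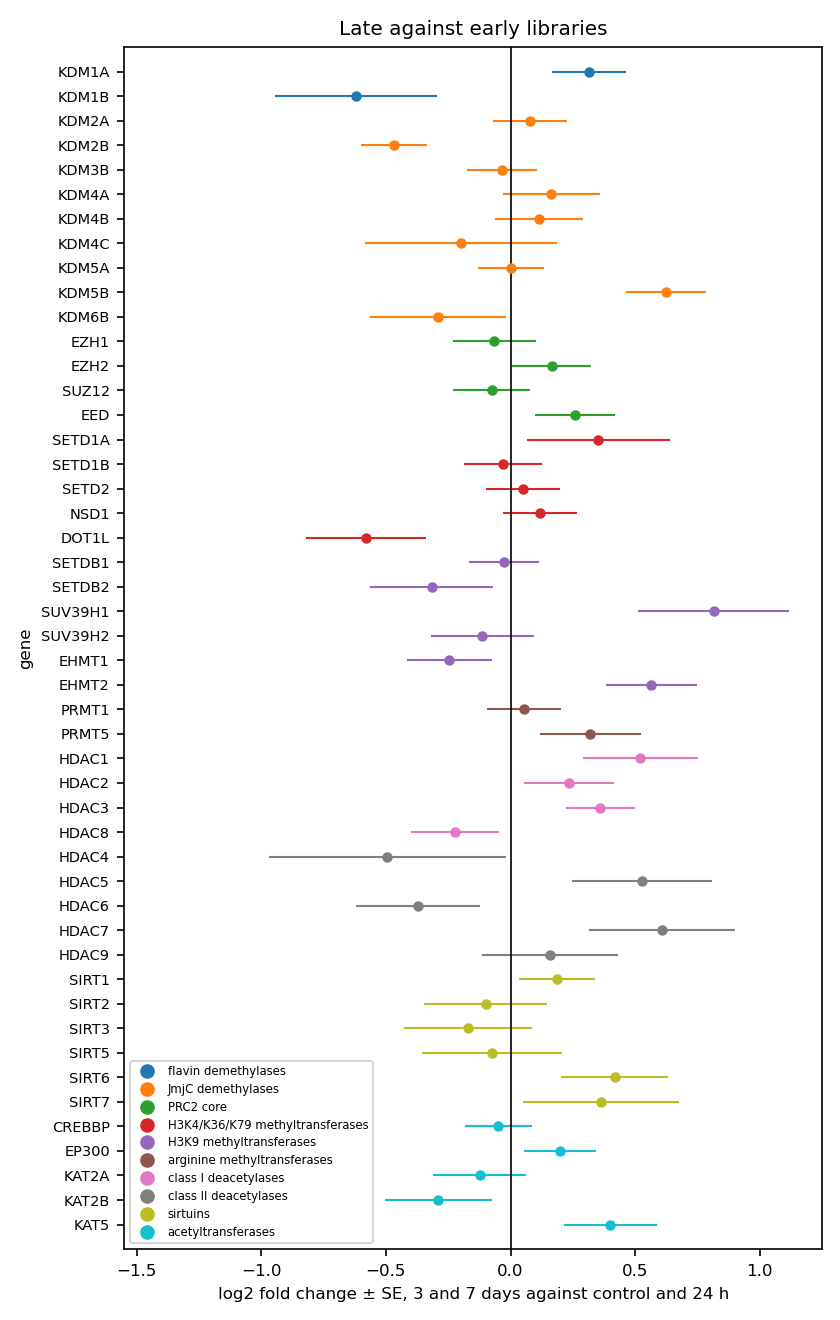
Log2 fold change (± SE) of each of the 48 enzymes, late libraries (3 and 7 days) against early libraries (control and 24 h), coloured by role. Values run from -0.62 for KDM1B to 0.82 for SUV39H1 with all libraries, and none passed an adjusted p of 0.05.

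At 24 h of exposure the enzymes differed little from control. The median log2 fold change was -0.01, with 21 higher (50% of all genes were) and 27 lower, and the median absolute change was 0.10 against 0.13 over all genes. None of the 48 had an unadjusted p under 0.05, against 0.175% of all genes. In 8 enzymes (16.7%) both 24 h libraries lay below both controls and in 0 above, against 12.5% and 11.4% of all genes and 23.9% in either direction. EHMT2 was among them, with a mean of 22.1 ± 0.29 CPM at 24 h and 28.7 ± 3.66 CPM in control (SD, n = 2 each) and a log2 fold change of -0.38 ± 0.26. SIRT7 had -0.37 ± 0.44, SETDB1 -0.15 ± 0.20 and EZH1 -0.18 ± 0.24, while SIRT6 had 0.43 ± 0.30, and each had an edgeR adjusted p of 1. Single libraries moved these values: EHMT2 stood at -0.24 without control replicate 1, and SIRT7 ran from -0.64 without 24 h replicate 2 to -0.14 without 24 h replicate 1. SIRT6 ran from 0.15, without control replicate 2 or 24 h replicate 2, to 0.77 without control replicate 1, and EZH1 from -0.37 without control replicate 1 to 0.04 without control replicate 2.

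At 3 days against control, 27 enzymes were higher and 21 lower, where 51.2% of all genes were higher, and their median log2 fold change was 0.05. An unadjusted p under 0.05 was reached by 3 of the 48 (6.25%), against 5.29% of all genes: KDM5B at 0.68 ± 0.23, SIRT6 at 0.78 ± 0.30 and KDM2B at -0.50 ± 0.19. Over all genes 2.15% were higher and 3.13% lower by this criterion. SUV39H1 had 0.82 ± 0.43 and HDAC3 had 0.35 ± 0.20, and the edgeR adjusted p was 0.843 for each of these 5. SIRT6 stood at 0.50 without control replicate 2 and SUV39H1 at 0.39 without 3 day replicate 1. SIRT6 averaged 20.6 ± 1.44 CPM at 3 days and 11.96 ± 3.59 CPM in control (SD, n = 2 each). The groups did not overlap for 18 of the 48 (37.5%), 10 higher and 8 lower, against 33.9% of all genes (16.7% higher and 17.2% lower). At 7 days against control the enzymes split evenly, 24 higher and 24 lower, as did all genes (50.1% higher), and 1 reached an unadjusted p under 0.05 (2.08% of the list), against 4.94% of all genes in either direction and 1.85% in the higher direction. This was KDM5B at 0.68 ± 0.23, with 53.0 ± 6.74 CPM at 7 days and 33.2 ± 2.04 CPM in control (SD, n = 2 each). KDM2B had -0.42 ± 0.19, DOT1L -0.55 ± 0.34, SIRT6 0.49 ± 0.30 and HDAC1 0.52 ± 0.33, and the edgeR adjusted p was 0.851 for each. DOT1L ran from -0.20 without 7 day replicate 1 to -0.99 without 7 day replicate 2, SIRT6 from 0.21 without control replicate 2 to 0.83 without control replicate 1, and HDAC1 stood at 0.28 without 7 day replicate 1. At 7 days 15 of the 48 did not overlap with control (31.2%), 10 higher and 5 lower, against 34.5% of all genes (16.6% higher and 17.9% lower). Both comparisons use the same control libraries.

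Against the 24 h group EHMT2, KDM5B and KDM2B had the smallest unadjusted p at 7 days and were among the 4 smallest at 3 days. At 3 days 4 of the 48 had an unadjusted p under 0.05 (8.33%), against 6.09% of all genes, with EHMT2 at 0.76 ± 0.26, SUV39H1 at 1.09 ± 0.43, KDM5B at 0.57 ± 0.23 and KDM2B at -0.51 ± 0.19 (edgeR adjusted p = 0.757 each). At 7 days 3 of the 48 did (6.25%), against 5.96% of all genes, with EHMT2 at 0.74 ± 0.26, KDM5B at 0.57 ± 0.23 and KDM2B at -0.44 ± 0.19 (edgeR adjusted p = 0.736 each). HDAC1 had 0.70 ± 0.33 at 7 days, and HDAC3 had 0.43 ± 0.20 at 3 days and 0.37 ± 0.20 at 7 days. Without replicate 1 of the same day, EHMT2 stood at 0.49 and SUV39H1 at 0.66 at 3 days, and HDAC1 at 0.46 at 7 days. HDAC1 also stood at 0.47 at 7 days without 24 h replicate 1. EHMT2 averaged 37.5 ± 9.15 CPM at 3 days and 37.0 ± 6.49 CPM at 7 days, against 22.1 ± 0.29 CPM at 24 h (SD, n = 2 each). Between 7 and 3 days no enzyme reached an unadjusted p under 0.05, against 0.247% of all genes, and the median log2 fold change was -0.02. KDM6B had -0.47 ± 0.39, SIRT7 -0.40 ± 0.44, SIRT2 -0.30 ± 0.35, SIRT6 -0.29 ± 0.30 and NSD1 0.17 ± 0.21, each with an edgeR adjusted p of 1. Over the fits with a library left out, KDM6B ran from -1.01 without 7 day replicate 2 to -0.06 without 3 day replicate 2, and NSD1 from 0.06 without 3 day replicate 2 to 0.30 without 3 day replicate 1. SIRT7 (-0.97 to 0.17) turned without 3 day replicate 1 or 7 day replicate 2, and SIRT2 (-0.66 to 0.17) turned without 3 day replicate 1. Between libraries of the same replicate number, KDM6B, SIRT7, SIRT2 and SIRT6 were lower at 7 days in both pairs. In a fit of the 4 late libraries alone with the replicate number as a block, chosen after the data were seen, KDM6B had -0.47 ± 0.17 (edgeR adjusted p = 0.521), SIRT7 -0.40 ± 0.20 (edgeR adjusted p = 0.836) and SIRT6 -0.29 ± 0.16 (edgeR adjusted p = 0.900). That fit has few libraries, so its SEs rest mostly on a spread shared over genes. They do not show a gain in precision over the SEs above. None of the 48 passed in that fit, and 9 of 12047 genes were called. An unadjusted p under 0.05 was reached by 4 enzymes there, against 5.93% of all genes. KDM6B and SIRT7 were lower at 7 days. HDAC1 at 0.23 ± 0.10 (edgeR adjusted p = 0.725) and HDAC4 at 0.48 ± 0.22 (edgeR adjusted p = 0.784) were higher. SIRT6 was not among the 4. In the test of the 3 exposed groups together, KDM5B and KDM2B had an unadjusted p under 0.05 (4.17% of the list, against 3.56% of all genes), and both had an edgeR adjusted p of 1.

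At both late times the 2 replicates differed from each other more than the 2 controls did. Over the 48 enzymes, the standard deviation of the log2 difference was 0.634 between the 3 day replicates and 0.600 between the 7 day replicates. It was 0.199 between replicate 1 at 7 days and replicate 1 at 3 days, and 0.213 between the replicate 2 libraries at these times. It was 0.263 between the controls and 0.345 between the 24 h replicates. The difference of replicate 1 from replicate 2 was similar at both late times: across the 48 genes Pearson's r was 0.929 and Spearman's rho 0.931, and 41 of 48 had the same sign. Across all 12536 genes r was 0.811. These are correlations across genes that share 4 libraries, and genes are not independent replicates.

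The genes named next were chosen after their values were seen. A difference of at least 0.5 on the log2 scale at both times, replicate 1 against replicate 2, was found for 4 enzymes in the higher direction (SETD1A, SUV39H1, HDAC5 and SIRT7) and for 10 in the lower direction (KDM1B, KDM4C, KDM6B, SETDB2, HDAC4, HDAC6, HDAC7, HDAC9, SIRT5 and KAT2B). These are 8.33% and 20.8% of the list, against 16.8% and 18.4% of all genes. KDM4C, an H3K9 and H3K36 demethylase, stood at 33.2 and 35.2 CPM in late replicate 1 and at 84.3 and 94.9 CPM in late replicate 2, with 53.4 to 86.4 CPM in the early libraries. HDAC4 stood at 3.495 and 4.31 CPM in late replicate 1 and at 11.2 and 16.3 CPM in late replicate 2, with 9.4 to 15.7 CPM early. HDAC5, of the same class, had the opposite pattern, with 25.7 and 21.9 CPM in late replicate 1 and 13.3 and 11.8 CPM in late replicate 2, beside 11.3 to 13.2 CPM early. HDAC9 lay on both sides of its early range of 30.6 to 33.7 CPM, with 22.7 and 25.8 CPM in late replicate 1 and 44.0 and 50.2 CPM in late replicate 2. KDM1B stood at 15.3 and 15.1 CPM in late replicate 1 and at 38.4 and 30.1 CPM in late replicate 2.

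**Figure D5:**
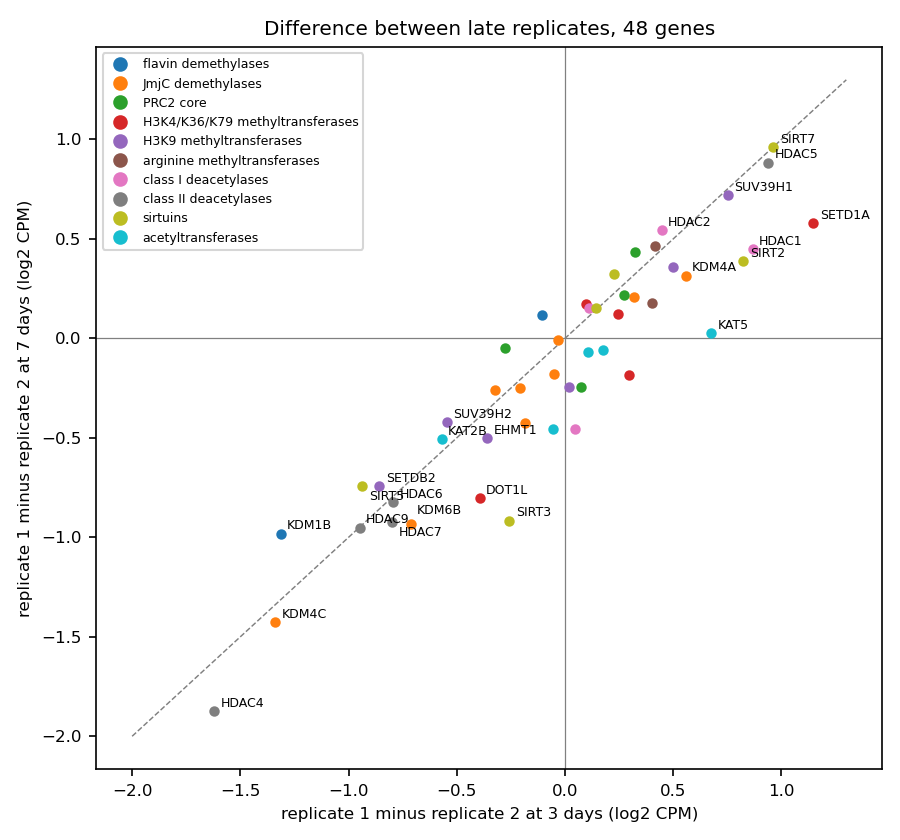
Log2 difference of replicate 1 from replicate 2 at 3 days (x axis) and at 7 days (y axis) for each enzyme, coloured by role; the dashed line marks equal differences. Points follow the line from HDAC4 at -1.62 and -1.87 to SIRT7 at 0.96 and 0.96.

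Late replicate 1 lay outside the early range more often than late replicate 2. Both replicate 1 libraries were above all 4 early libraries for 20 enzymes (41.7%, against 30.7% of all genes) and below them for 15 (31.2%, against 31.0%). Both replicate 2 libraries were above for 7 (14.6%, against 14.5%) and below for 3 (6.25%, against 14.5%). The 2 late replicate 2 libraries were also left out, a setting chosen after the data were seen. Each late group then held a single library, and the filter on counts was applied anew. Numbers of genes called there are therefore not set against the 12536 genes of the main fit. Late against early, EHMT2 then had a log2 fold change of 0.77, SUV39H1 of 1.152, KDM2B of -0.52 and KDM1B of -1.31. With the late replicate 1 libraries left out instead, KDM5B had 0.77 ± 0.15 and KDM2B had -0.41 ± 0.14. The difference in these 2 genes was thus as large or nearly as large without late replicate 1. The difference between the late replicates had a rank correlation with transcript length of -0.283 at 3 days and -0.297 at 7 days over the 48 genes, and with GC content of 0.259 and 0.082. Over 10953 genes with a transcript these were -0.299 and -0.265 for length and 0.259 and 0.120 for GC content. The part of transcript length, of GC content and of the share of reads under no feature in the split between late replicates was not tested.

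Levels of proliferation genes are given beside these results. Late against early, all 14 replication and mitosis genes listed had a positive log2 fold change (median 0.39), though 0 passed an adjusted p of 0.05 in edgeR and 5 had an unadjusted p under 0.05. Over all genes 50.5% were higher and 6.94% were higher with an unadjusted p under 0.05. Their median level relative to the control mean, on the log2 scale, was 0.34 and 0.25 at 3 days and 0.39 and 0.39 at 7 days, against 0.18 and -0.18 in control and -0.42 and 0.17 at 24 h. The part of these genes in the higher KDM5B, EHMT2, SUV39H1 and HDAC3 levels was not tested. Of 80 further chromatin genes listed (partners of these enzymes, readers of their marks and other writers and erasers), 74 were tested and 0 passed in any comparison. Late against early, 45 of the 74 were higher, with a median log2 fold change of 0.08, and an unadjusted p under 0.05 was reached by 8 higher and 1 lower. That is 12.2% of the 74, against 14.2% of all genes.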

How the data were processed

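The authors deposited a table of unnormalised read counts by gene symbol for each of the 8 libraries. The submitters' processing notes list R 3.2.3, DESeq2 1.8.1, Bowtie2, Trim Galore and SAMtools, and the builds GRCh37 and hg19. How reads were counted, with which strand setting and gene models, is not given in the sources used here. Libraries were made from RNA bound to poly-T beads and amplified by PCR, per the labels' protocols. Each table ended in 5 summary entries that name no gene; these held 42.6% to 57.5% of reads and were left out. Without a strand setting, reads of overlapping genes cannot be told apart. In GENCODE 29, 13 of the 48 enzymes share exon positions with another gene of the table. For 10 of them the other gene lies on the opposite strand, such as RNF34 for KDM2B and PLEKHJ1 for DOT1L. The mean log2 CPM of these 10 partners, late minus early, ran from -0.117 for PLEKHJ1 to 0.921 for CERS2, which overlaps SETDB1. The part of such reads in the enzymes' values was not tested.

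From the deposited counts, genes were filtered with edgeR 4.0.16 (filterByExpr, minimum count 10, minimum total 15), scaled with TMM and fitted with the quasi-likelihood test over all 8 libraries, a coefficient per group and no covariate, in R 4.3.3. The common biological coefficient of variation was 0.276. P-values were adjusted by Benjamini-Hochberg over all 12536 genes tested in each comparison. Fold changes are on the log2 scale, as the first group named over the second; SE is derived from the F statistic. With 2 libraries a group, p-values measure only the spread between these libraries. The procedure was tested on simulated counts with independent libraries, no split between late replicates and larger fold changes than most given here. That test does not show how the procedure behaves on differences of the size or structure seen here. Full values are given for the 5 enzymes with the smallest unadjusted p in each comparison, and up to 4 more by role. The enzymes, the other lists and the contrast of late with early libraries were chosen with earlier results of these data known. The alternatives tried were scaling by RLE or by upper quartiles, DESeq2 1.42.0, limma-voom (limma 3.58.1), no filter, a filter of at least 50 counts in at least 2 libraries, robust empirical Bayes, a fit of only the groups compared, the replicate number as a block, each library left out in turn and, added after the data were seen, late replicates of the same number left out together, a crossed block at 24 h, and a block in a fit of the late libraries alone.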

Additional observations from a re-analysis of the deposited data

How the results depend on the processing

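Precision is limited by 2 libraries a group and a common biological coefficient of variation of 0.276. No enzyme passed in any alternative other than the one without late replicate 2, and the 5 enzymes leading late against early kept their direction in all of them. Numbers of genes called depended on the tool and filter. Without a filter on counts they were 11 (3 days) and 16 (7 days) against control, 21 (3 days) and 25 (7 days) against 24 h, 489 late against early and 67 in the joint test. With DESeq2 they were 9, 15, 19, 21, 276 and 65 in the same order. With late replicate 2 left out, chosen after the data were seen, they were 334, 374, 813, 716, 3824 and 438, with 4 enzymes called for 3 days against 24 h, 1 for 7 days against 24 h, 17 late against early and 1 in the joint test. Late against early, 0 genes in place of 1 were called in each fit with a library left out (0 to 0) and without late replicate 1. The cause was not tested.

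The enzymes' median log2 fold change stayed near 0. With each library left out in turn it ranged from -0.081 to -0.0096 for 24 h against control, 0.0058 to 0.091 for 3 days and -0.011 to 0.055 for 7 days against control, 0.00078 to 0.12 for 3 days and 0.0146 to 0.15 for 7 days against 24 h, -0.059 to 0.081 for 7 days against 3 days, and 0.0097 to 0.069 late against early. It was -0.048 for 7 days against control with upper-quartile scaling. Without late replicate 1 it was 0.058 for 7 days against control and 0.052 for 7 days against 3 days. Without late replicate 2 it was 0.11 for 3 days and 0.015 for 7 days against 24 h. Signs turned for EZH1 at 24 h against control without control replicate 2 (-0.37 to 0.042 over the fits with a library left out), for SIRT7 at 7 days against 3 days without 3 day replicate 1 (0.17) or 7 day replicate 2 (0.02; range -0.97 to 0.17), and for SIRT2 there without 3 day replicate 1 (-0.66 to 0.17). Fits that left a single library in a group assume that it varies like the other groups.

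Replicate numbers as labelled did not pair the samples across all groups, but those of the late libraries went together. Over all tested genes, replicate differences correlated at 0.811 between 3 and 7 days. They correlated at 0.337 and 0.321 between control and 3 or 7 days. The values were -0.599 between control and 24 h, and -0.318 and -0.308 between 24 h and 3 or 7 days. Every negative value involved the 24 h group, whose replicate differences tended to run opposite to those of the other groups, for reasons not tested. The main test of late against early libraries took no account of this, and a block crossed at 24 h was not fitted to it. With the replicate number as a block, 1 gene was called late against early and 0 in every other comparison, and 0 enzymes were called. A block in a fit of the 3 and 7 day libraries alone, chosen after the data were seen, called 9 genes and 0 enzymes between 7 and 3 days. A block with crossed numbers at 24 h called 0 genes against control.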
